A study of Mus musculus with 12 samples.

Results

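Expression of IL15, IL15RA, IL18, IL18BP and IL7 was described in CT26 cells, a mouse colon carcinoma line. The 5 genes were taken by symbol from a table of 23636 symbols. The groups were CT26 cells with No treatment, with CX3CL1 (recombinant chemokine, 2 µg/ml), with IFN-γ (100 ng/ml) and with CX3CL1+IFN-γ. The labels and the study's figure legend name these agents, while its running text names TNF-α besides IFN-γ, with CX3CL1 added after them. Treatment lasted 8 hours, and each group held 3 biological replicates, for 12 mRNA libraries in all. All groups were cultures of the same line with no host cells, and the symbols are printed in capitals as in the table.

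IL-15 and IL-7 are cytokines whose receptors share the common gamma chain with the receptor for IL-2, and both sustain lymphocytes. IL-15 is mostly carried on the surface of the producing cell by its alpha receptor chain (IL15RA), which presents it to neighbouring T and NK cells bearing the beta and gamma chains. IL-18 is an IL-1 family cytokine that is made as a precursor, is cut by caspase-1 and drives IFN-γ production, and IL-18 binding protein (IL18BP) is a secreted decoy that captures it. IL18BP and IL15 are known as genes that respond to interferon.

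Levels are given as TPM, a share of each library's transcripts that takes length into account, so that genes can be compared with each other. Fold changes are differences in log2(TPM + 1), which understate the change of genes with low TPM. Tests were made with limma over all 12 libraries on the 11878 genes whose mean reached 0.2 TPM, and a gene was called at an adjusted p under 0.05 after Benjamini-Hochberg adjustment over all of them. IL15, IL18BP and IL7 passed this filter. IL15RA, with a mean of 0.199 TPM, and IL18, with 0.0419 TPM, did not. With 3 libraries a group, the smallest p of an exact two-sided permutation test is 0.1, and the calls therefore depend on limma, which shares information on the spread between genes. The comparisons with No treatment share the untreated libraries, and the comparisons with CX3CL1+IFN-γ share those.

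Replicates correlated at r = 0.984 to 0.996 over the genes tested, and no pair of libraries was identical. Vimentin (VIM, 1684 to 4831 TPM), fibronectin (FN1) and KRT18 marked the line, while the epithelial markers EPCAM, CDH1, KRT8 and KRT19 were at 0 or below 0.364 TPM. The leukocyte marker PTPRC reached at most 0.0441 TPM, CSF1R, CD3E and NCR1 were at or near 0, and 21 of 28 leukocyte-type markers stayed below 0.2 TPM in every library. The others were CD68, CD14, LYZ2, ZBTB46, CD79A, S100A8 and S100A9. CX3CR1, the receptor for CX3CL1, reached at most 0.154 TPM. This is a level of RNA, and the study reported high CX3CR1 protein on CT26 cells by flow cytometry. A value of 0 can be a failed estimate, since RPL26, a ribosomal protein gene, was listed at 0 in all 12 libraries.

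Of the 5 genes, IL15 and IL18BP were called with IFN-γ. In replicates 1, 2 and 3 IL15 stood at 2.09, 1.46 and 0.774 TPM with No treatment, at 4.92, 4.34 and 5.42 TPM with CX3CL1, at 8.56, 10.8 and 22.3 TPM with IFN-γ, and at 9.33, 13.7 and 23.2 TPM with CX3CL1+IFN-γ. The order of the groups was No treatment, CX3CL1, IFN-γ and CX3CL1+IFN-γ. The first 3 of these did not overlap, and the IFN-γ and CX3CL1+IFN-γ libraries did. For separations between groups, here and below, the share over all genes was computed for CX3CL1 against No treatment alone. The means were 1.44 ± 0.658, 4.89 ± 0.544, 13.9 ± 7.34 and 15.4 ± 7.10 TPM (SD, n = 3 each).

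**Figure D1:**
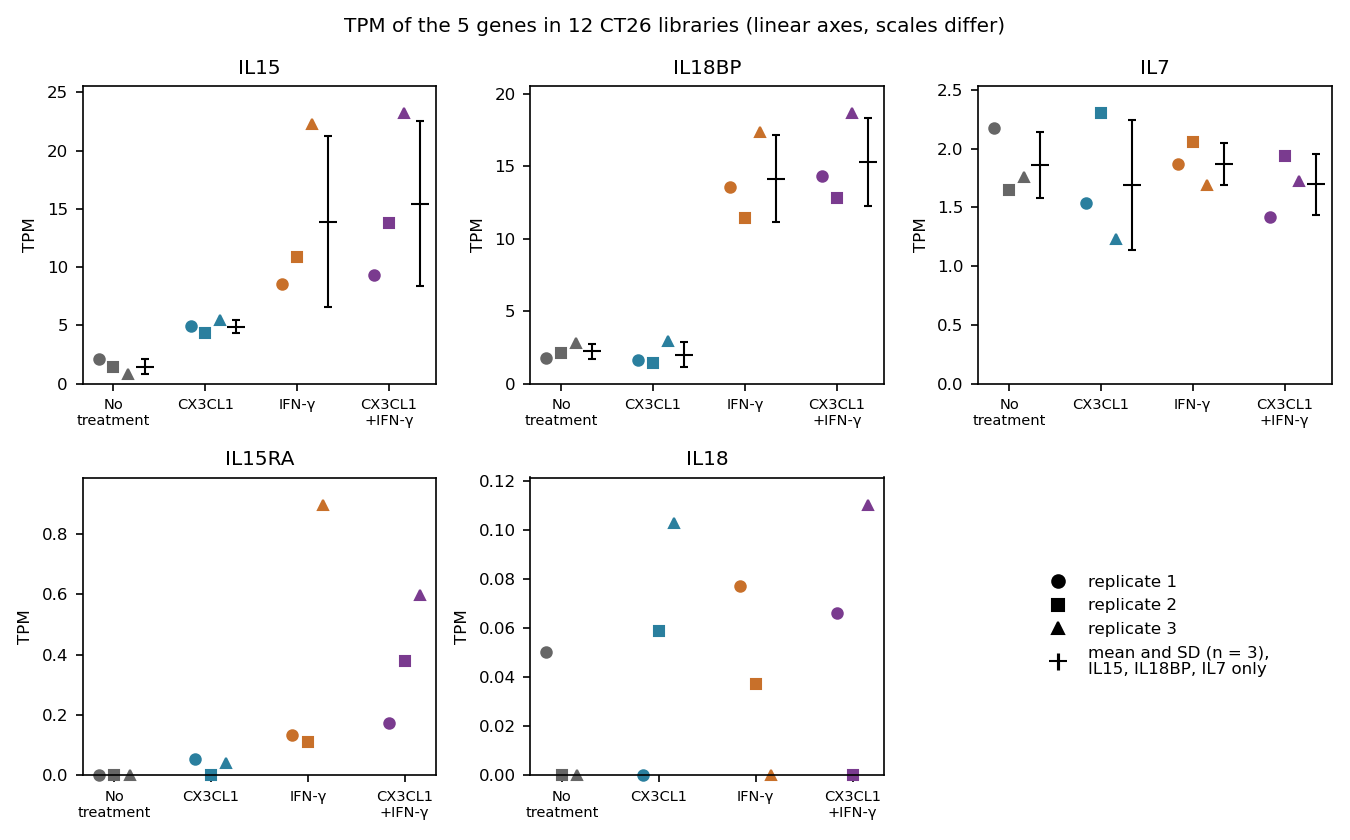
TPM of each of the 5 genes (linear axes from 0, with a scale of its own for each gene) in the 12 libraries by group. Marker shapes give the replicate number, and for IL15, IL18BP and IL7 the bars give the mean and SD of 3 libraries. IL15 and IL18BP were high in both groups with IFN-γ, IL7 was level, and IL15RA and IL18 stayed under 1 TPM.

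With IFN-γ, the mean of IL15 was 9.64-fold that of the untreated cells. The log2 fold change was 2.54 (SE 0.34, limma adjusted p = 0.000331), and in this comparison 5.91% of all genes tested were called higher. With both agents the mean was 10.7-fold that of No treatment, with a log2 fold change of 2.7 (SE 0.34, limma adjusted p = 0.000135), where 8.21% of genes were called higher. Both calls held in all 21 alternatives tried, including each fit without 1 library, where the log2 fold change ran from 2.16 to 2.80 for IFN-γ and from 2.38 to 2.99 for both agents.

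With CX3CL1 alone, IL15 was higher in 3 of 3 libraries than in any untreated library, and the mean was 3.40-fold higher. The log2 fold change was 1.30 (SE 0.34, 95% interval 0.57 to 2.04), and the difference was not called, with a limma adjusted p of 0.0892. In this comparison 1.95% of the genes tested were called in either direction, and 11.2% had groups that did not overlap in either direction. IL15 was called with a pseudocount of 0.1 (limma adjusted p = 0.034) and in a fit of these 2 groups alone (0.0114). It was also called without IFN-γ replicate 3 (0.0315) and without CX3CL1+IFN-γ replicate 3 (0.0499), the libraries with the highest IL15, which enter only the shared estimate of the spread. Without each of the 6 libraries compared the call was not made, with adjusted p from 0.0841 to 0.392.

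Addition of IFN-γ to CX3CL1 raised IL15 by 1.39 on the log2 scale (SE 0.34, limma adjusted p = 0.0345), where 3.76% of genes were called higher. This call did not hold throughout. It was lost with no filter (adjusted p = 0.0945), with median-ratio scaling (0.0516) and with quantile normalization (0.0692), without CX3CL1 replicate 1 (0.0795), 2 (0.0792) or 3 (0.0757), and without CX3CL1+IFN-γ replicate 2 (0.0643) or 3 (0.153). The log2 fold change kept its sign in all 21 alternatives, from 1.07 to 1.69.

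Addition of CX3CL1 to IFN-γ left IL15 within the spread of the replicates. The difference was 0.16 on the log2 scale (95% interval -0.57 to 0.90, limma adjusted p = 0.979), which does not exclude a change of either sign, and 0.362% of all genes tested were called. The interaction, which is the effect of CX3CL1 in the presence of IFN-γ minus its effect alone, was -1.14 on the log2 scale for IL15 (95% interval -2.18 to -0.10). Its unadjusted limma p was 0.034 and its adjusted p 1.0. No gene was called for the interaction in limma (0.0%), 273 genes had an unadjusted p under 0.05, and 52 were called with the replicate number as a block, IL15 not among them. In mean TPM, IL15 rose over No treatment by 3.45 with CX3CL1, by 12.4 with IFN-γ and by 14.0 with both agents. An interaction was not tested on the TPM scale.

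**Figure D2:**
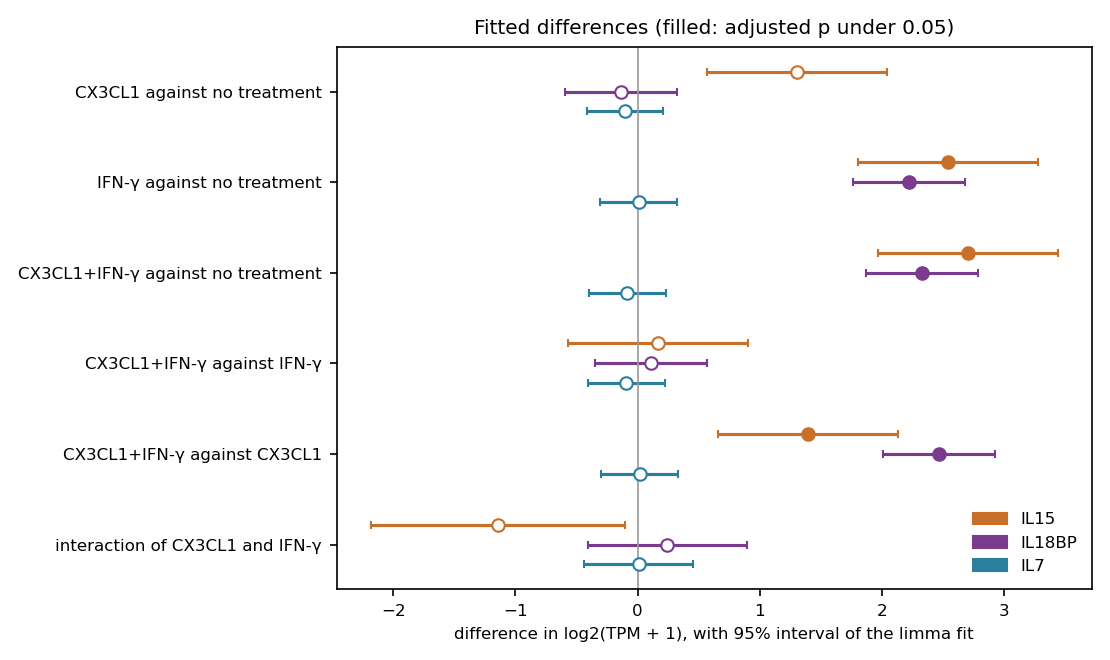
Differences in log2(TPM + 1) from the limma fit for IL15, IL18BP and IL7 in the 6 comparisons, with 95% intervals. Filled circles mark an adjusted p under 0.05: IL15 and IL18BP were called in the 3 comparisons that add IFN-γ, and IL7 was called in none.

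With IFN-γ, the replicates of IL15 spread more (SD 7.34 TPM) than those of IL18BP (SD 3.00 TPM) at similar means. Replicate 3 held the lowest untreated value and the highest value with IFN-γ. Between libraries of the same number, the TPM ratio of IFN-γ to No treatment was 4.09, 7.44 and 28.7 for replicates 1, 2 and 3. For CX3CL1+IFN-γ against IFN-γ the same ratios were 1.09, 1.27 and 1.04, each above 1. Over all genes tested, same-numbered libraries deviated together in both of these comparisons. IL15 itself ran in opposite order over the replicates with No treatment and with IFN-γ. With the replicate number as a block, no IL15 call changed.

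**Figure D3:**
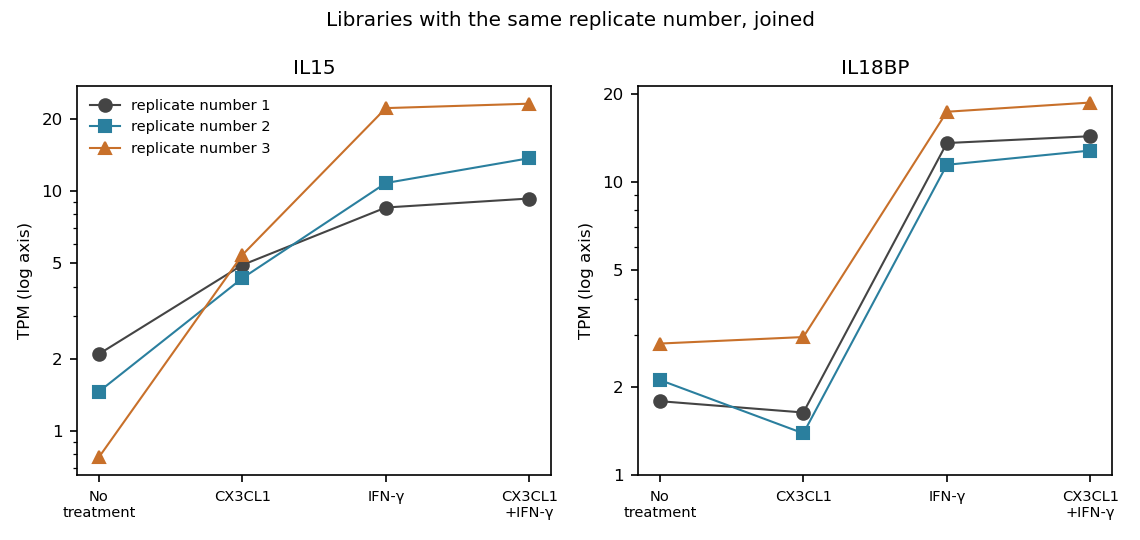
TPM (log axis) of IL15 and IL18BP in the 4 groups, with libraries of the same replicate number joined. IL15 spans 8.56 to 22.3 TPM within IFN-γ and fans out from CX3CL1 to IFN-γ, and IL18BP spans 11.5 to 17.4 TPM there.

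IL15RA, the chain that presents IL-15, was listed at 0 in all 3 untreated libraries. With CX3CL1 it stood at 0.0549, 0 and 0.0399 TPM, with IFN-γ at 0.135, 0.108 and 0.899 TPM, and with CX3CL1+IFN-γ at 0.173, 0.377 and 0.599 TPM. Every library with IFN-γ lay above every library without it, at levels of less than 1 TPM, and no fold change is given against a group listed at 0. How many of all genes separate in this way was not computed. Its mean of 0.199 TPM fell just short of the filter. With no filter, the log2 fold change was 0.42 for IFN-γ (limma adjusted p = 0.263) and 0.46 for both agents (adjusted p = 0.184), and IL15RA was called in none of the 6 comparisons. Both genes were above 0.2 TPM in 3 libraries, where the ratio of IL15RA to IL15 was 0.0404 (IFN-γ replicate 3), 0.0275 and 0.0258 (CX3CL1+IFN-γ replicates 2 and 3), so that IL15 transcripts outnumbered those of its presenting chain in each of them.

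The other chains of the IL-15 receptor were measured at low levels. IL2RG, the common gamma chain, stood at 2.47, 1.76 and 1.91 TPM with No treatment, at 3.18, 2.88 and 3.25 TPM with CX3CL1, at 6.25, 5.74 and 7.91 TPM with IFN-γ, and at 7.90, 5.15 and 7.80 TPM with both. All libraries with IFN-γ lay above all others, and the share of all genes that separate so was not computed. IL2RG rose by 1.32 with IFN-γ on the log2 scale (SE 0.16, limma adjusted p = 0.000154) and by 1.37 with both agents, and the 0.44 with CX3CL1 was not called (adjusted p = 0.362). IL2RB, the beta chain, reached at most 0.484 TPM and was not tested.

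Of the 12 genes of an IL-15 pathway list, which holds the receptor chains, JAK and STAT members, sheddases and feedback inhibitors, 10 were tested. CX3CL1 raised 1 (MMP9), IFN-γ 3 and both agents 6, and none fell. Over all genes tested, 1.95% were called with CX3CL1 (in either direction), and 5.91% and 8.21% were called higher with IFN-γ and with both. The median log2 fold changes of the list were 0.22, 0.54 and 0.75, against -0.02, 0.03 and 0.02 over all genes tested. STAT3, a transcription factor downstream of many cytokine receptors, rose by 0.80 with IFN-γ (SE 0.17, limma adjusted p = 0.00887) and by 1.06 with both. SOCS1, a feedback inhibitor of JAK kinases, rose by 0.97 with IFN-γ (SE 0.25) and by 0.85 with both. MMP9, a secreted protease, rose by 1.09 with CX3CL1 (SE 0.19) from 0.0808 ± 0.0261 to 1.33 ± 0.448 TPM (SD, n = 3 each).

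SOCS3, another inhibitor of this class, rose with both agents, from 15.9 ± 0.984 to 44.3 ± 13.0 TPM (SD, n = 3 each), and was called against No treatment and against CX3CL1. JAK3, the kinase bound to the common gamma chain, was at 5.06 TPM with No treatment and 8.79 TPM with IFN-γ, and its adjusted p was 0.051 for IFN-γ and 0.0491 for both agents, where the call held in 9 of 21 alternatives. STAT5A, STAT5B, JAK1 and ADAM17 were called in no comparison. With the replicate block, IFN-γ raised 5 genes of the list in place of 3 (JAK3 and MMP9 were added), as did IFN-γ on top of CX3CL1 (JAK3 and SOCS1 were added).

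IL18, the cytokine itself, was near 0 throughout. It stood at 0.0503, 0 and 0 TPM with No treatment, at 0, 0.0586 and 0.103 TPM with CX3CL1, at 0.0771, 0.0372 and 0 TPM with IFN-γ, and at 0.0660, 0 and 0.110 TPM with both. All groups overlapped, at least 1 library of each group was listed at 0, and no difference was called when the gene was tested with no filter.

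IL18BP, its secreted inhibitor, rose with IFN-γ. In replicates 1, 2 and 3 it stood at 1.79, 2.11 and 2.81 TPM with No treatment, at 1.63, 1.39 and 2.96 TPM with CX3CL1, at 13.6, 11.5 and 17.4 TPM with IFN-γ, and at 14.3, 12.8 and 18.7 TPM with CX3CL1+IFN-γ. The 6 libraries with IFN-γ lay between 11.5 and 18.7 TPM, above the 6 without it, and within each of these sets the 2 groups overlapped. The share of all genes that separate in this way was not computed. The means were 2.24 ± 0.523, 1.99 ± 0.845, 14.1 ± 3.00 and 15.3 ± 3.05 TPM (SD, n = 3 each).

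IL18BP rose 6.33-fold in mean TPM with IFN-γ, with a log2 fold change of 2.22 (SE 0.21, limma adjusted p = 2.16e-05). It rose 6.83-fold with both agents (log2 fold change 2.33, SE 0.21, limma adjusted p = 9.6e-06) and 7.67-fold when IFN-γ was added to CX3CL1 (log2 fold change 2.46, SE 0.21, limma adjusted p = 7.72e-05). These calls held in all 21 alternatives. CX3CL1 did not move it beyond the spread, either alone (-0.14, 95% interval -0.60 to 0.32) or with IFN-γ (0.11, 95% interval -0.35 to 0.57), and its interaction of 0.24 was not called. Between libraries of the same number, the TPM ratio of CX3CL1+IFN-γ to IFN-γ was 1.06, 1.12 and 1.08, each above 1 as for IL15. With the replicate number as a block this difference was not called either (95% interval -0.11 to 0.33, limma adjusted p = 0.754). No library held both IL18BP and IL18 above 0.2 TPM, so no ratio of inhibitor to cytokine is given.

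The start of IL18BP is shown beside that of IL18 because one gene rose with IFN-γ and the other was near 0. The sequences are the 250 bases before the start site from RefSeq on GRCm38.p6, at chr7:102018233-102018482 on the minus strand for IL18BP and at chr9:50554450-50554699 on the plus strand for IL18. In the GENCODE annotation the IL18BP gene extends to 102018690, so this IL18BP window lies inside the annotated gene. Capitals mark a match to the C/EBP letters TTGCNNAA in IL18BP and to the IRF core letters AANNGAAA in IL18.
IL18BP: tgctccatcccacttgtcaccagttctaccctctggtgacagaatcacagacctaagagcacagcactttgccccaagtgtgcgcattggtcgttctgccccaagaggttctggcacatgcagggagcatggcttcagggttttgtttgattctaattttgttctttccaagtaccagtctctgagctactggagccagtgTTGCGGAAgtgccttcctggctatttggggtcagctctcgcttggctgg
IL18: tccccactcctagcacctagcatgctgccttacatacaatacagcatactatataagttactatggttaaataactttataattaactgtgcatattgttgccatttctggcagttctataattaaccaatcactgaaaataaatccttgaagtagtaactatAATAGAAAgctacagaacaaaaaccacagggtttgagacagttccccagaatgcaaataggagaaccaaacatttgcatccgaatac

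Windows of 300 bases, 250 before to 50 after the start, were searched on both strands for these motifs and for the GAS letters TTCNNNGAA, the ISRE letters GAAANNGAAA, which hold the IRF core, and the NF-kB consensus. The C/EBP match of IL18BP began 49 bases before the start, and 10.8% of 32851 promoter windows held one. The IRF core of IL18 began 87 bases before the start, and 23.9% of windows held one. Of the 2 windows of IL15RA, each held an IRF core, 187 bases before the start on the minus strand in one and 26 bases past the start in the other. GAS (8.3% of windows), ISRE (3.4%) and the NF-kB consensus (4.5%) had no match in these 4 windows, which says only that the letters are not there. For IL18BP, the bases around and before its GENCODE start at 102018690 were not searched. IL15 and IL7 had no entry.

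In GENCODE vM21 on GRCm38, IL18BP lies at chr7:102014885-102018690 on the minus strand with 4 transcripts, and its last 80 bases overlap the end of NUMA1 on the plus strand. NUMA1, a spindle protein, was level, at 46.3 TPM with No treatment and 48.7 TPM with IFN-γ (log2 fold change 0.07, limma adjusted p = 0.73), and RNF121, which lies 446 bases from IL18BP, was not called (0.17, adjusted p = 0.377). IL15 lies at chr8:82331632-82403222 on the minus strand with 10 transcripts of up to 8 exons, and its nearest neighbours past the filter, INPP4B (0.30 with IFN-γ) and ZFP330 (0.12), were not called. IL15RA is at chr2:11705290-11734317, IL18 at chr9:50554827-50581840, where it overlaps BCO2 and TEX12 on the other strand, and IL7 at chr3:7569994-7613760, where it overlaps the antisense gene GM16685. BCO2 and TEX12 were at 0 or at most 0.0182 TPM in every library. Whether reads were counted by strand is not given in the sources used here.

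The receptor for IL-18 was measured in part. IL18RAP, its accessory chain, was among the more abundant transcripts of the list, at 55.2 to 62.1 TPM with No treatment, 59.4 to 79.2 TPM with CX3CL1, 64.3 to 78.3 TPM with IFN-γ and 64.8 to 82.4 TPM with both, and was called in no comparison. IL18R1, the chain that binds IL-18, reached at most 0.0584 TPM and was not tested.

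Of 17 genes of an IL-18 pathway list, which holds the receptor, inflammasome members and the MYD88 branch, 13 were tested. CX3CL1 raised 3, and IFN-γ, both agents, and IFN-γ on top of CX3CL1 each raised 5, with none lower. Over all genes tested, 1.95% were called with CX3CL1 (in either direction). The shares called higher were 5.91% with IFN-γ, 8.21% with both and 3.76% for IFN-γ on top of CX3CL1. The medians of the list were 0.18 with CX3CL1, 0.26 with IFN-γ and 0.28 with both on the log2 scale, against -0.02, 0.03 and 0.02 over all genes tested. The count of 5 for IFN-γ on top of CX3CL1 was 3 without CX3CL1 replicate 2 and 2 without CX3CL1+IFN-γ replicate 3.

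CASP1, the protease that cuts the IL-18 precursor, stood at 20.8, 12.5 and 15.4 TPM with No treatment, at 35.0, 29.8 and 29.2 TPM with CX3CL1, at 56.4, 47.4 and 68.1 TPM with IFN-γ, and at 67.1, 60.5 and 88.6 TPM with both. It rose by 0.93 with CX3CL1 on the log2 scale (SE 0.19, limma adjusted p = 0.0196) and by 1.77 with IFN-γ (SE 0.19, adjusted p = 5.24e-05). CASP4, the inflammatory caspase that senses lipopolysaccharide in the cytosol, rose from 3.11 ± 1.49 TPM to 16.0 ± 1.66 with CX3CL1, 42.2 ± 13.3 with IFN-γ and 65.3 ± 21.9 TPM with both (SD, n = 3 each). GSDMD, the pore-forming substrate of these caspases, rose by 0.69 with CX3CL1 (SE 0.11) and by 0.87 with IFN-γ (SE 0.11).

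NLRP3, an inflammasome sensor, went from 0.393 ± 0.188 to 2.61 ± 0.982 TPM with IFN-γ and 9.35 ± 4.71 TPM with both (SD, n = 3 each). It was called in each of these. With CX3CL1 alone NLRP3 stood at 2.02 ± 1.06 TPM, and the difference of 1.07 (SE 0.35) was not called (limma adjusted p = 0.253). The study reported NLRP3 as raised by CX3CL1 in its RNA sequencing, where gene counts were tested. MYD88, the adaptor of IL-1 family receptors, rose by 1.02 with IFN-γ (SE 0.17). PYCARD, the adaptor that joins NLRP3 to caspase-1, stayed below 0.2 TPM on average in every group and was not tested, and AIM2, IRAK1, IRAK2, IRAK4 and TRAF6 were called in no comparison. With the replicate block NLRP3 was called with CX3CL1 alone too. It was also called there for CX3CL1 on top of IFN-γ, the only gene of the list to be so.

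**Figure D4:**
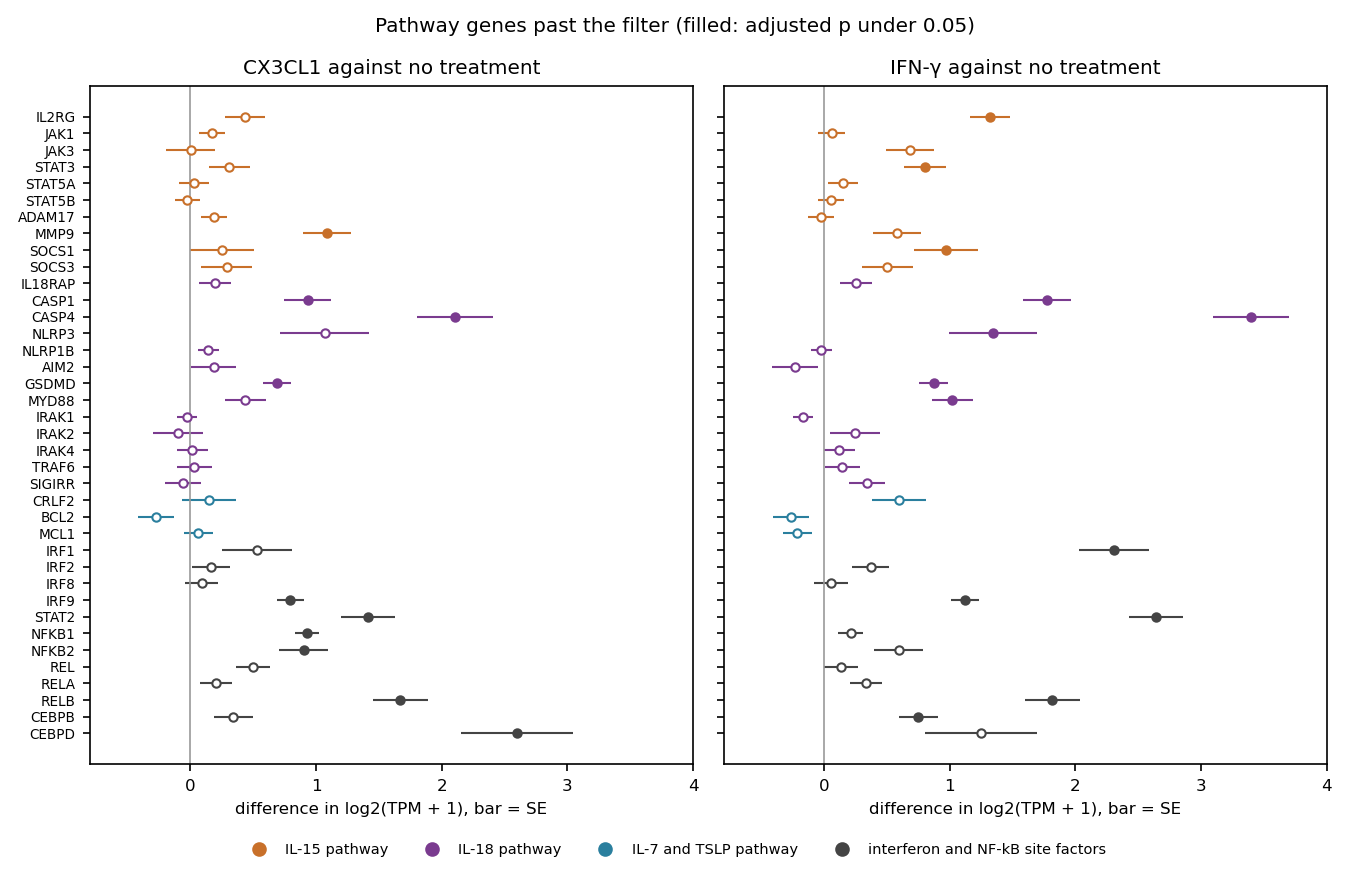
Differences in log2(TPM + 1) for the genes of 4 lists that passed the filter, with CX3CL1 (left) and with IFN-γ (right) against No treatment. Bars are the SE of the limma fit and filled circles mark an adjusted p under 0.05. CASP4 stands at 2.10 and 3.40, IRF1 at 0.53 and 2.31, and genes shared by 2 lists are drawn once.

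IL7 was level in the 4 groups. It stood at 2.18, 1.65 and 1.76 TPM with No treatment, at 1.54, 2.30 and 1.23 TPM with CX3CL1, at 1.87, 2.05 and 1.69 TPM with IFN-γ, and at 1.42, 1.94 and 1.73 TPM with both. All 4 groups overlapped. The difference with IFN-γ was 0.01 on the log2 scale (95% interval -0.31 to 0.32), with CX3CL1 -0.10 (95% interval -0.42 to 0.21) and with both -0.09 (95% interval -0.40 to 0.23), and none of the 6 comparisons was called in any alternative. With IFN-γ, the upper bound of IL7 was thus 0.32, and the lower bounds were 1.80 for IL15 and 1.76 for IL18BP.

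IL7R, the receptor chain of its own, was listed at 0 in 11 of 12 libraries and stood at 0.0114 TPM in the other. TSLP, the related cytokine that uses the same chain, was not tested. Of 10 genes of an IL-7 and TSLP list, 8 were tested. IFN-γ raised 1 (IL2RG), both agents raised 2 (IL2RG and JAK3), and CX3CL1 raised none, where 5.91%, 8.21% and 1.95% of all genes tested were called (the last in either direction). The medians of the list were 0.11, 0.19 and 0.04 on the log2 scale, against 0.03, 0.02 and -0.02 over all genes tested. The count for both agents ran from 1 to 3 when single libraries were left out. BCL2 and MCL1, survival genes that IL-7 induces in lymphocytes, and CRLF2, the other TSLP receptor chain, were called in no comparison without the replicate block. With the replicate block IFN-γ raised 3 genes of the list (CRLF2 and JAK3 were added), and 2 were raised on top of CX3CL1.

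The nearest relatives of these cytokines were mostly at or near 0. Of the other common gamma chain cytokines IL2, IL4, IL9 and IL21, none passed the filter. Of 9 other IL-1 family cytokines and antagonists, IL1A alone did. IL1A, an alarmin, went from 0.0269 ± 0.0306 TPM with No treatment to 0.383 ± 0.119 with CX3CL1, 0.842 ± 0.790 with IFN-γ and 5.08 ± 2.82 TPM with both (SD, n = 3 each). It was called with both agents against No treatment (log2 fold change 2.47, SE 0.29, limma adjusted p = 8.79e-05), against CX3CL1 (2.04) and against IFN-γ (1.71, adjusted p = 0.0283), the last in 12 of 21 alternatives.

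Among 12 transcription factors known to bind interferon, NF-kB and C/EBP sites, all were tested and none fell. CX3CL1 raised 6, IFN-γ 5 and both agents 10, where 1.95% (in either direction), 5.91% and 8.21% of all genes tested were called. The medians of the list were 0.66, 0.67 and 1.11 on the log2 scale, against -0.02, 0.03 and 0.02 over all genes tested. IRF1, which binds IRF elements, stood at 18.7 to 20.5 TPM with No treatment, 23.5 to 34.0 TPM with CX3CL1, 77.6 to 166.0 TPM with IFN-γ and 66.9 to 126.2 TPM with both. It rose by 2.31 with IFN-γ on the log2 scale (SE 0.28, limma adjusted p = 0.000152), and the 0.53 with CX3CL1 was not called (adjusted p = 0.778). IRF1 was highest in replicate 3 of both groups with IFN-γ, as were IL15, IL18BP, CASP1 and IL18RAP. CASP4 and IL2RG were highest in replicate 3 with IFN-γ and in replicate 1 with both agents.

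STAT2, which acts in the type I interferon response together with IRF9, rose by 1.42 with CX3CL1 (SE 0.22, limma adjusted p = 0.00288) and by 2.64 with IFN-γ (SE 0.22, adjusted p = 7.64e-06). IRF9 and RELB were also called with each agent alone. NFKB1, NFKB2 and CEBPD were called with CX3CL1 and not with IFN-γ, and CEBPB and IRF1 with IFN-γ and not with CX3CL1. With the replicate block CEBPD and NFKB2 were called with IFN-γ too, 7 factors in place of 5. The difference between the 2 agents was not tested. IRF2 (0.56, SE 0.15, limma adjusted p = 0.0289) and REL (0.47, SE 0.14, adjusted p = 0.0407) were called with both agents and with neither alone. CEBPB rose by 0.75 with IFN-γ (SE 0.15). IRF8 and RELA were called in no comparison.

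The genes whose log2(TPM + 1) followed each member most closely over the 12 libraries were PARP11 (Pearson r = 0.993), IRF5 (0.982) and IFI205 (0.982) for IL15, and RAB5C (0.979), IDO2 (0.974) and PSME1 (0.973) for IL18BP. For IL7 they were BC052040 (0.936), TMEM69 (0.925) and CYB5R4 (0.913). The libraries fall into groups, so for the matches of IL15 and IL18BP r mostly carries the difference between the groups. The matches of IL7 had similar means in all groups. All were picked for their likeness, so their group means follow from that choice. PARP11 had means of 14.4, 29.2, 61.3 and 71.0 TPM and IRF5 of 0.724, 2.21, 6.71 and 8.77 TPM in the order No treatment, CX3CL1, IFN-γ and CX3CL1+IFN-γ. IDO2 had means of 1.71, 1.76, 9.55 and 8.80 TPM in that order, the low pair without IFN-γ and the high pair with it.

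Markers of other cells were set beside these results. The summed TPM of 4 neutrophil markers was 0 to 0.931 with No treatment, 0.0754 to 0.349 with CX3CL1, 1.28 to 3.27 with IFN-γ and 0.743 to 6.66 with both, and came mostly from S100A8, while CSF3R was at 0 in all libraries and LY6G reached at most 0.0937 TPM. The summed TPM of 7 macrophage and monocyte markers, mostly CD14 and CD68, overlapped between all groups, at 35.2 to 47.0, 38.0 to 69.4, 37.0 to 57.3 and 42.0 to 70.4. The summed TPM of 7 markers of the line itself was 3945 to 5090 with No treatment, 3496 to 4105 with CX3CL1, 2719 to 3748 with IFN-γ and 2025 to 3308 with both, and came mostly from VIM. Both groups with IFN-γ lay below No treatment. KRT18 fell with IFN-γ (-0.68, SE 0.18, limma adjusted p = 0.0346) and with both agents (-1.02, adjusted p = 0.00171), VIM fell with both (-0.86, SE 0.21, adjusted p = 0.0186), and FN1 was not called. The part of these markers, and of S100A8-expressing cells, in the results was not tested. Bulk RNA does not tell more cells with a transcript from more transcript per cell.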

How the data were processed

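RNA sequencing of CT26 cells covered 4 groups of 3 biological replicates, grouped by the labels. The doses and the time came from the study's text. Libraries were made by the authors from mRNA with a strand-specific kit. They aligned reads to mm10 with STAR 2.7.3a and tested gene counts with DESeq2 1.22.1. The authors deposited TPM that sum to 1000000 in each library. TPM carry no depth, so depth is unknown, no counting error was computed, and DESeq2 was not repeated. How counts became TPM and the gene annotation are not given in the sources used here.

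The 5 genes, the gene lists, the markers and the tests were chosen with earlier results of these data known. Limma 3.58.1 (R 4.3.3, lmFit, eBayes with an intensity trend) was run on log2(TPM + 1) for 11878 genes (mean over the libraries of 0.2 TPM or more), with all 12 libraries, group as the only term, and p-values adjusted by Benjamini-Hochberg in each of 6 comparisons (threshold 0.05, two-sided). The fit was tested on simulated data. Over all genes tested, 702 were higher and 230 lower with IFN-γ, 975 and 442 with both agents, and 447 and 111 for IFN-γ on top of CX3CL1. With quantile normalization these were 569 and 538, 803 and 887, and 352 and 224, and with median-ratio scaling 640 and 351, 943 and 584, and 357 and 187.

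The labels number the replicates alike in each group. Same-numbered libraries deviated together from their group means over the genes tested for No treatment and IFN-γ (r = 0.43, 0.46 and 0.22), IFN-γ and CX3CL1+IFN-γ (0.63, 0.64 and 0.65), CX3CL1 and CX3CL1+IFN-γ (0.35, 0.35 and 0.43), and CX3CL1 and IFN-γ (0.58, 0.36 and 0.23). The pairing rests on these correlations alone. The fits were repeated with each library left out, with the replicate number as a block, with quantile normalization or median-ratio scaling, without the filter or with one at 1 TPM, without the intensity trend, on the compared libraries alone, with a pseudocount of 0.1, and with a minimum log2 fold change of 1.

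Named were the 5 genes, the called genes of each list with up to 5 uncalled ones, the 3 genes most like each member by Pearson r, and genome neighbours. Positions came from GENCODE vM21 (GRCm38, the assembly of mm10), and promoter windows from RefSeq, matched by symbol for 3 of the 5 genes. One further list, of 3 endothelial markers, stayed below 0.2 TPM. One gene each of the transcription factor and IL-18 lists is not reported here and was left out of the counts. Tables were prepared with pandas 2.3.3.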

Additional observations from a re-analysis of the deposited data

How the results depend on the processing

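The calls of IL15 and IL18BP with IFN-γ and with both agents against No treatment, and of IL18BP for IFN-γ on top of CX3CL1, held in all 21 alternatives. Of the 5 genes, the number called with CX3CL1 went from 0 to 1 (IL15) with a pseudocount of 0.1 and with only the libraries compared, and ran from 0 to 1 when 1 library was left out. For IFN-γ on top of CX3CL1 it went from 2 to 1 (IL18BP remained) with no filter, median-ratio scaling and quantile normalization, and ran from 1 to 2 when 1 library was left out. IL7, never called, changed sign with IFN-γ to -0.018 under median-ratio scaling and -0.15 under quantile normalization, on top of CX3CL1 to -0.023 and -0.12, and for the interaction to -0.0055 under median-ratio scaling. When 1 library was left out, IL7 ran from -0.26 to 0.021 with CX3CL1, from -0.047 to 0.086 with IFN-γ, from -0.11 to 0.17 for IFN-γ on top of CX3CL1, and from -0.12 to 0.17 for the interaction. For CX3CL1 on top of IFN-γ, IL15 ran from -0.16 to 0.54 and IL18BP from -0.038 to 0.26, and IL18BP with CX3CL1 alone from -0.36 to 0.0093. The causes were not tested.

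With the replicate block, no call of the 5 genes changed (IL15 with CX3CL1: adjusted p = 0.0566). No treatment shared numbers only in part with CX3CL1 (r = 0.39, 0.0 and 0.3) and with CX3CL1+IFN-γ (0.31, 0.45 and 0.03). Over all genes the block called 347 higher and 108 lower with CX3CL1 (212 and 20 without it), 1353 and 576 with IFN-γ, 1578 and 886 with both, 89 and 6 for CX3CL1 on top of IFN-γ (41 and 2 without it), and 1035 and 334 for IFN-γ on top of CX3CL1. Of the lists, the block called 5 IL-15 genes in place of 3 with IFN-γ and on top of CX3CL1, 1 IL-18 gene in place of 0 for CX3CL1 on top of IFN-γ and for the interaction, 3 IL-7 and TSLP genes in place of 1 with IFN-γ and 2 in place of 1 on top of CX3CL1, 1 IL-1 family gene in place of 0 with IFN-γ, 7 factors in place of 5 with IFN-γ, 2 in place of 1 for CX3CL1 on top of IFN-γ and 3 in place of 0 for the interaction. It also called NLRP3 with CX3CL1 (4 IL-18 genes in place of 3), BCL2 lower with both agents (3 IL-7 and TSLP genes in place of 2), and IRF9 on top of CX3CL1 (4 factors in place of 3).

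A filter at a mean of 1 TPM gave 0 IL-15 genes with CX3CL1, 2 IL-7 and TSLP genes with IFN-γ, and 2 factors for CX3CL1 on top of IFN-γ. The last count was also 2 with median-ratio scaling and quantile normalization, and the IL-7 and TSLP count was 2 with quantile normalization. With no filter 3 IL-18 genes were called on top of CX3CL1 in place of 5, 1 IL-7 and TSLP gene with both agents in place of 2, and 1 IL-1 family gene with CX3CL1 in place of 0, 2 with both in place of 1 and 0 on top of IFN-γ in place of 1. A pseudocount of 0.1 gave 1 IL-1 family gene with IFN-γ and 0 on top of IFN-γ. When 1 library was left out, counts ran from 0 to 1 for IL-15, IL-18 and IL-1 family genes with CX3CL1 on top of IFN-γ, from 1 to 2 for factors there, from 2 to 5 for IL-18 genes and 1 to 2 for IL-7 and TSLP genes with IFN-γ on top of CX3CL1, and from 1 to 3 for IL-7 and TSLP genes with IFN-γ and with both agents. The ratio of IL15RA to IL15 with both agents was 0.0266 over 2 libraries and 0.0797 on the TPM + 1 scale. By Spearman's rho, with ties taken by symbol, IL15 and IL7 each shared 1 of the 3 most alike genes with those by Pearson r, and IL18BP 0.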
